A study of Mus musculus with 12 samples.

Results

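Cytosolic ribosomal proteins were followed here through 100 probe sets of 48 genes, out of 22626 probe sets tested on the array. A probe set was taken when the platform annotation gave it exactly 1 gene symbol and that symbol began with Rpl or Rps and a digit, began with Rplp, or was Rpsa. Kinases that phosphorylate ribosomal protein S6 and pseudogenes were left out, which removed 7 probe sets. Of the 48 genes, 20 encode small-subunit proteins, 20 large-subunit proteins, 2 stalk proteins (Rplp0 and Rplp2) and 6 are paralogs of ribosomal protein genes (Rpl3l, Rpl7l1, Rpl22l1, Rpl39l, Rps4l and Rps27l). A further 102 probe sets carried several symbols, at least 1 of them a ribosomal protein gene, and 30 ribosomal protein genes, among them Rplp1 and Rpl5, were found only in such sets. They do not belong to the 100 and are given separately.

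The livers came from 12 male mice on an FVB background, each on an array of its own. In 6 of them the gene of phosphatidylcholine transfer protein was absent (Pctp-/-), and the other 6 were wild-type littermates. Both groups ate standard chow to the age of 8 weeks, then chow with 0.2% fenofibrate (wt/wt), an activator of the nuclear receptor PPARα, for 7 days, and were killed at 9 weeks. Every difference below is therefore between genotypes under the drug, and the response to the drug itself was not measured. Median intensity per array ran from 83.99 to 91.1 in the authors' units, and the number of arrays limits the precision.

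A ribosome has a small subunit, which reads the messenger RNA, and a large subunit, which joins amino acids. Each ribosomal protein is needed in about equal number, and their genes are among the most heavily transcribed in hepatocytes. Their messenger RNAs begin with a run of pyrimidines, the 5′ terminal oligopyrimidine (TOP) tract, through which the kinase complex mTORC1 and the RNA-binding protein LARP1 control how often they are translated. An array reads the messenger level and not how often a messenger is translated. The mature proteins are imported into the nucleolus and assembled with ribosomal RNA by a large set of assembly factors.

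Runs of pyrimidines lie near the annotated start in several of the genes described below. RefSeq promoter sequences (build GRCm38.p6) were matched to 42 of the 48 genes by symbol. The 70 bases around the annotated start, 50 before it and 20 from it on, are printed for the 3 genes that rose by their brightest probe set (Rpl7a, Rpl6 and Rps3) and for 4 that did not pass the test. Of the latter, Rps18, Rpl38 and Rplp2 were chosen to show a marked run of pyrimidines and Rpl11 to show a window without one. Capitals mark runs of at least 10 pyrimidines.
Rpl7a, chr2:26910757-26910826, plus strand: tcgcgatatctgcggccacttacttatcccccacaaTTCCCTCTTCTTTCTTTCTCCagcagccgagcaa
Rpl6, chr5:121204451-121204520, plus strand: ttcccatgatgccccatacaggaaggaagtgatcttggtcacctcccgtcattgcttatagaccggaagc
Rps3, chr7:99483690-99483759, minus strand: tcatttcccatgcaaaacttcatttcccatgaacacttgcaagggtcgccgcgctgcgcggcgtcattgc
Rps18, chr17:33955646-33955715, minus strand: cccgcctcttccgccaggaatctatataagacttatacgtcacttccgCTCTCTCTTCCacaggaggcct
Rpl38, chr11:114668530-114668599, plus strand: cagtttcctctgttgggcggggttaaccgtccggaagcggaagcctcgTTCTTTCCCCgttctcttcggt
Rplp2, chr7:141447601-141447670, plus strand: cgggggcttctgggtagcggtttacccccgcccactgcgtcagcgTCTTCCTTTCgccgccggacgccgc
Rpl11, chr4:136053374-136053443, minus strand: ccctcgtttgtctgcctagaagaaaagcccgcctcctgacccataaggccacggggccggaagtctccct
The run covered 21 bases in Rpl7a, 11 in Rps18 and 10 in Rpl38 and Rplp2. It began before the annotated start, at -14 in Rpl7a, -5 in Rplp2 and -2 in Rps18 and Rpl38. In Rpl6, Rps3 and Rpl11 these windows held none, nor did those of Rpl37a, Rps2 and Rps3a1, which are not printed and did not pass the test. Across the window's end or further downstream, within 50 bases of the start, lay runs in 4 of these genes. They covered 11 bases in Rpl6, 17 in Rpl11, 13 in Rpl37a and 10 in Rps2, and only Rps3 and Rps3a1 had none there. The search ran on the transcribed strand from 50 bases before to 50 after the annotated start. A run of at least 10 pyrimidines was found in 30 of 50 promoters of the member genes (60%). Over all 32851 promoters in the table the share was 18.1%. Among 75 promoters of mitochondrial ribosomal protein genes it was 16%. The letters CCGGAAG contain the shorter core of ETS factor sites. Within the 300 bases they occurred, on either strand, in 42% of the member promoters, 34.7% of the mitochondrial ones and 8.86% of all. Several genes have more than 1 annotated start, and an annotated start can differ from the start used in liver. A run found here is therefore not shown to be a TOP tract. Runs of fewer than 10 pyrimidines were not searched for, so a gene without a run here may still carry a TOP tract.

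The ribosomal protein genes differed little between the genotypes. By its brightest probe set, 3 of 48 genes rose in the knockout (Rpl7a, Rpl6 and Rps3, by 1.10-fold to 1.12-fold) and 0 fell at an adjusted p under 0.05, while over all 12393 genes 6.46% rose and 5.24% fell. Counted by probe set, 5 of 100 passed, all higher. They were those of the 3 genes above, the dimmer of 2 sets of the paralog Rpl7l1, and the dimmest of 4 sets of Rps20. Over all probe sets 6.82% were higher and 5.15% lower. The share of members called higher was thus near that of the whole array. At an unadjusted p under 0.05 there were 17 of 100 member probe sets, 14 higher and 3 lower. Over all 22626 probe sets 26.3% were under that limit, 3448 of them higher and 2501 lower. Tests were those of limma, with Benjamini-Hochberg adjustment over all 22626 probe sets. The number of calls moved with the settings: a trended and robust variance model gave 11 higher and 2 lower, and median centring gave 2 higher and 1 lower. The share of all probe sets called higher moved too, to 7.98% and 5.42%, and the share called lower to 5.85% and 6.89%. By array left out the number of member calls lay between 2 and 8 higher and between 0 and 1 lower.

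Rpl7a, a large-subunit protein, rose 1.12-fold. Its intensity was 5540 at the lowest, 5712 at the median and 5844 at the highest of the knockout arrays, against 4909, 5088 and 5195 in wild type. The highest wild-type liver thus lay below the lowest knockout liver. The difference on the log2(intensity + 16) scale was 0.17 (SE 0.0368, 95% interval 0.0876 to 0.247, adjusted p = 0.0119, limma). The call held in all 12 fits that dropped 1 array (adjusted p of 0.0152 to 0.0287), and was lost with the replicate number as a block (0.0592). The gene spans 26910685 to 26913312 on chromosome 2 (GRCm38.p6).

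Rpl6, also of the large subunit and on chromosome 5 (121204501 to 121209241), rose 1.10-fold. Its knockout arrays ran from 3567 to 3781 with a median of 3643, and its wild-type arrays from 3214 to 3440 with a median of 3358. The groups did not overlap. The difference was 0.14 (SE 0.0385, adjusted p = 0.0378, limma), and leaving out single arrays gave adjusted p from 0.0387 to 0.0802, with the call lost in 9 of the 12 fits, those without knockout replicates 1 to 5 or wild-type replicates 3 to 6 (one array at a time).

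Rps3 sits where the small subunit takes in messenger RNA, and it rose 1.10-fold. The knockout intensities were 3756 at the lowest, 3816 at the median and 3936 at the highest, and the wild-type ones 3386, 3455 and 3652. Again no wild-type liver reached the lowest knockout liver. The difference was 0.14 (SE 0.0379, adjusted p = 0.0294, limma), and it lost its call in 6 of the 12 fits without 1 array (knockout replicates 1, 2 and 3, wild-type replicates 3, 5 and 6), with adjusted p up to 0.0634. Rps3 lies on chromosome 7 from 99477896 to 99483709. Rpl6 and Rps3 were not called after median centring (adjusted p = 0.137 and 0.0932) or with the replicate number as a block (0.0995 and 0.107), nor was Rpl6 after quantile normalization (0.0713).

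Rpl7l1 is a paralog of Rpl7. Its dimmer probe set showed the largest rise among the called members, 1.24-fold, from a wild-type median of 224.7 (209.2 to 250.2) to a knockout median of 289.1 (260.6 to 307.2). The groups did not overlap, and the difference of 0.31 (SE 0.0599, adjusted p = 0.00644, limma) kept its call in all 12 fits that left out 1 array. The brighter set of the gene was at 0.17 (SE 0.0553, adjusted p = 0.0596), with knockout arrays from 483 to 515 and wild-type arrays from 393 to 490, so its groups overlapped. Rpl7 itself had 3 probe sets between 0.0830 and 0.11, none past the threshold. The promoter of Rpl7l1 held no run of at least 10 pyrimidines in the stretch searched.

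**Figure D1:**
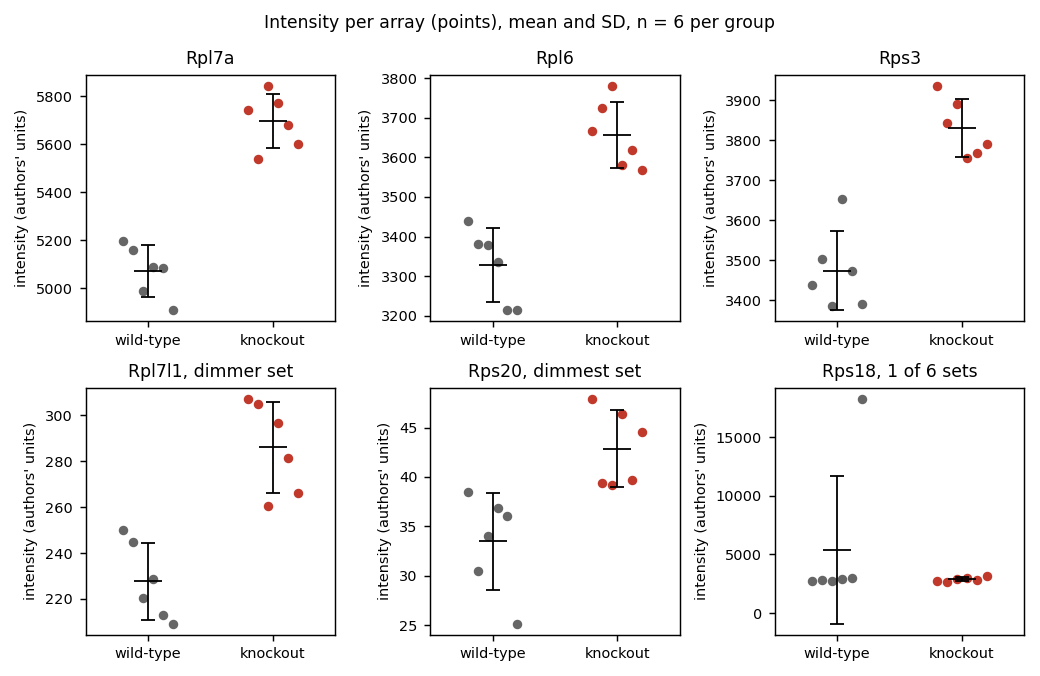
Intensity on each array (points) in the authors' units for the 5 probe sets past the threshold and for 1 probe set of Rps18, with the mean and SD of 6 arrays per group. The vertical axes do not start at 0. The first 5 panels show no overlap between the groups, and in the last a single wild-type array stands at 18278.7.

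Rps20, a small-subunit protein, did not move one way in its 4 probe sets. The called set was its dimmest, at 39.2 to 47.9 in knockout and 25.2 to 38.5 in wild type, without overlap (difference 0.25, SE 0.0723, adjusted p = 0.0382, limma). Its brightest set went the other way, with a median of 4636 in knockout and 4966 in wild type and a difference of -0.11 (SE 0.0488, adjusted p = 0.155), and it passed, as lower, under the trended and robust variance model (adjusted p = 0.0458). The call of the dimmest set was lost in 7 of the 12 fits without 1 array, those without knockout replicates 1, 4 or 6 or wild-type replicates 2, 3, 5 or 6 (adjusted p up to 0.0813). Rps20 can therefore not be given as higher or lower from these probe sets.

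Most control ratios of 5′ to 3′ signal, a measure used for RNA quality, differed between the genotypes. The log2 ratio of 5′ to 3′ signal of the beta-actin control ran from -1.27 to -1.05 in knockout and from -1.77 to -1.41 in wild type, a difference of 0.39 (two-sided exact permutation test, p = 0.00216, 0.00289 adjusted over 4 control transcripts), the smallest p such a test can give. It was higher in 6 of 6 knockout arrays than in any wild-type array. The Gapdh and pyruvate carboxylase ratios differed the same way, by 0.11 and 0.33 (exact permutation p = 0.00216 for each), and the transferrin receptor ratio by 0.0685 (exact permutation p = 0.652). The cause of these ratio differences, and their part in the small rises of Rpl7a, Rpl6 and Rps3, were not tested.

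Just short of the threshold stood Rpl37a, a small zinc-binding protein of the large subunit, with 0.13 in its brightest set (SE 0.0382, adjusted p = 0.0502, limma). Its knockout arrays lay between 5169 and 5407 and its wild-type arrays between 4715 and 5093, without overlap. Its other sets were at 0.0350 and 0.0194. After it came the brighter set of Rpl7l1 (adjusted p = 0.0596) and, lower in knockout, a set of Rpl27 (-0.17, adjusted p = 0.0817). With larger p stood the large-subunit proteins Rpl8 (0.11, adjusted p = 0.0942) and Rpl4 (0.0945, adjusted p = 0.127), and the small-subunit proteins Rps3a1 (0.11, adjusted p = 0.0905) and Rps7 (0.10, adjusted p = 0.114). Rpl37a, Rpl8, Rpl4, Rps3a1 and Rps7, which were picked after their values were seen, were called higher under the trended and robust variance model, with the constant 64 and when probe sets with a mean intensity under 100 were left out. In 9 member probe sets the groups did not overlap, and in all 9 the knockout was higher. Over all probe sets 6.75% had groups without overlap, 3.90% higher and 2.86% lower. Besides the 5 called sets these were Rpl37a, Rpl4, Rps7 and Rps2.

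**Figure D2:**
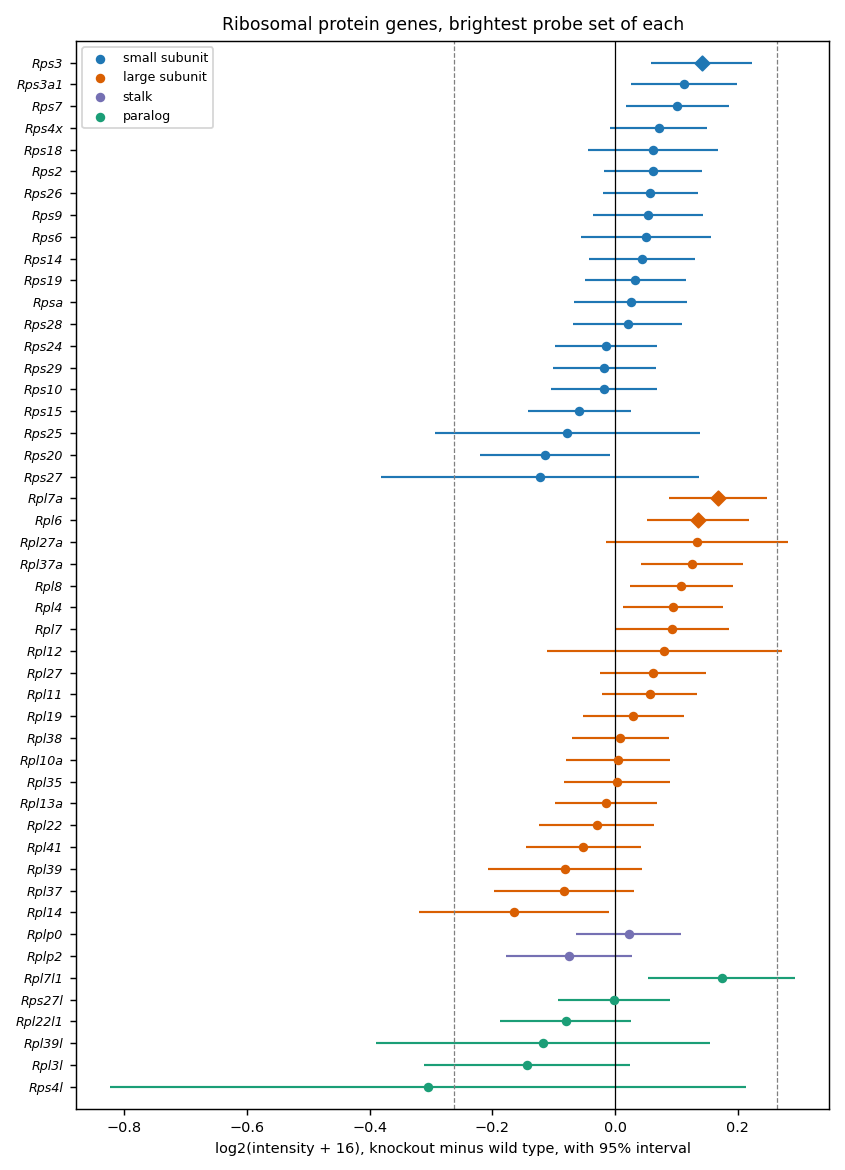
Difference between knockout and wild type on the log2(intensity + 16) scale for the brightest probe set of each of the 48 genes, with 95% intervals from limma, coloured by the place of the protein. Diamonds are the 3 genes past the threshold and dashed lines mark 1.2-fold in either direction. Intervals of 39 genes lie inside the dashed lines, and the widest belongs to the paralog Rps4l.

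For most members the data set a narrow bound on any difference. The 95% interval stayed within 1.2-fold either way for 39 of 48 genes, and for all 36 genes whose brightest set had a mean intensity of at least 1000. Over all 12393 genes 41.4% had such an interval. Most members are bright, and at a mean intensity of at least 3000 it held for 98.3% of member probe sets and 84.2% of others. Of the 12 dimmer member genes 3 did, so for the other 9 a change of that size was not excluded by the interval. Some of these 9 also have brighter sets shared with other symbols, which are not counted here. Such sets were at 0.0163 (SE 0.0379) for Rpl27a, -0.0329 (SE 0.0405) for Rps25 and -0.10 (SE 0.0638) for Rps27. Those of Rpl12 and Rpl14 are given below. The median difference was 0.0234 over the 48 genes and 0.0146 over all genes, and after median centring that of the 48 genes was -0.00943. Of the 48 genes 29 stood above 0 and 19 below, and of all 12393 genes 6719 stood above and 5674 below.

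By subunit, the 20 small-subunit genes had a median difference of 0.0385 and a range from -0.12 to 0.14, with Rps3 the 1 call. The 20 large-subunit genes had a median of 0.0432 and a range from -0.16 to 0.17, with Rpl7a and Rpl6 called. Over all genes 6.46% were called higher and 5.24% lower. Rpl14 had the lowest large-subunit value, from a dim set at 43.5 to 54.8 in knockout and 49.8 to 67.6 in wild type (-0.16, SE 0.0714, adjusted p = 0.161), and its groups overlapped.

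Rplp0 and Rplp2 form, with Rplp1, the stalk that recruits elongation factors to the large subunit. Rplp0 read 4836 to 5105 with a median of 4979 in knockout and 4643 to 5097 with a median of 4894 in wild type. The ranges overlapped almost wholly (0.0217, 95% interval -0.0637 to 0.11). Rplp2 had medians of 4986 and 5368 and a difference of -0.0752 (95% interval -0.18 to 0.0279). The set shared by Rplp1 and a second gene model was at -0.0591 (SE 0.0411), so none of the 3 stalk proteins passed.

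Several members are known for roles beyond translation. Rpl11 binds the p53 ubiquitin ligase MDM2 when ribosome assembly fails. It read 3985 to 4150 in knockout and 3813 to 3990 in wild type, ranges that overlapped at their ends (0.0565, 95% interval -0.0211 to 0.13). Its partner Rpl5, seen only through sets shared with a pseudogene, was at 0.0268 (SE 0.0380) in the brightest. Rps6, the substrate of the S6 kinases, was measured alone by 2 dimmer sets, the brighter at a median of 283 in knockout and 264 in wild type (0.0502, adjusted p = 0.574). The brightest of the sets it shares with a pseudogene was at 0.0883 (SE 0.0384). These shared sets ranged from -0.12 to 0.10, and none passed. Rpsa, which is also the laminin receptor, was at 0.0250 (95% interval -0.0678 to 0.12), with medians of 3590 and 3483.

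The 3 genes with the highest probe set intensity did not pass the test. Rps29 had a median of 7658 in knockout and 7812 in wild type, a difference of -0.0176 (95% interval -0.10 to 0.0659). Rpl38, known in mouse for selective translation of Hox messengers, had 6749 and 6613 (0.00846, 95% interval -0.0710 to 0.0879). Rps2 had 6732 and 6511 (0.0614, adjusted p = 0.324), and although its groups did not overlap it was far from the threshold. The sign of Rpl38 turned after median centring (-0.0243) and quantile normalization (-0.0258), and that of Rplp0 and Rpsa after median centring (-0.0111 and -0.00780).

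Among the other paralogs none passed. Rps27l, which p53 induces, read 5021 to 5562 in knockout and 5087 to 5460 in wild type (-0.00185, 95% interval -0.0925 to 0.0888). Rpl22l1, which can stand in for Rpl22, had medians of 2493 and 2594 (-0.0805, adjusted p = 0.333). The muscle paralog Rpl3l and the testis-enriched Rpl39l were near the bottom of the intensity range in both groups, at 13.8 to 25.5 and 4.67 to 18.5 over all arrays. Rps4l varied most between animals of one genotype, from 61.9 to 206.8 in knockout and from 117.9 to 216.6 in wild type (-0.30, SE 0.239, adjusted p = 0.468). The 95% interval for Rps4l ran from -0.82 to 0.21.

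Many genes were read by more than 1 probe set, and the signs of these often differed. Of the 48 genes 23 had several, and in 12 of them the brightest set was over 10 times as bright as the dimmest. Signs were opposite within 14 of the 23. Some of these spreads were small, as in Rps29 (-0.0176 to 0.00896), so opposite signs alone do not show that sets disagree. Rpl35 had a wide spread. Its 5 brighter sets lay between -0.0645 and 0.00227. Its dimmest set was at 0.38 (SE 0.167, adjusted p = 0.168, limma), with 104 to 181 in knockout and 80.5 to 171 in wild type. Rpl27 had a set at -0.17 (SE 0.0573, adjusted p = 0.0817), with medians of 1113 and 1278, and its 2 brighter sets were at 0.0620 and 0.00563. The Rpl27 value was the lowest p among members lower in knockout, and it passed after median centring (adjusted p = 0.0398), with the constant 64 (0.0468), without dim sets (0.0353), under the trended and robust variance model (0.0371) and without knockout replicate 6 (0.0348).

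The suffix of a probe set tells how specific its probes are. Of the 100, 40 end in x_at, which marks probes that also match other sequences, 30 in plain _at, 28 in a_at and 2 in s_at. None of the x_at sets passed, and their median difference was -0.00280. Among the a_at sets 3 passed (Rpl7a, Rpl6 and Rps3) with a median of 0.0447, and among the plain sets 2 (Rpl7l1 and Rps20) with a median of -0.00892. Ribosomal protein genes have many processed pseudogenes, so signal in a probe set can come from near-identical copies, and these cannot be told apart here.

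**Figure D3:**
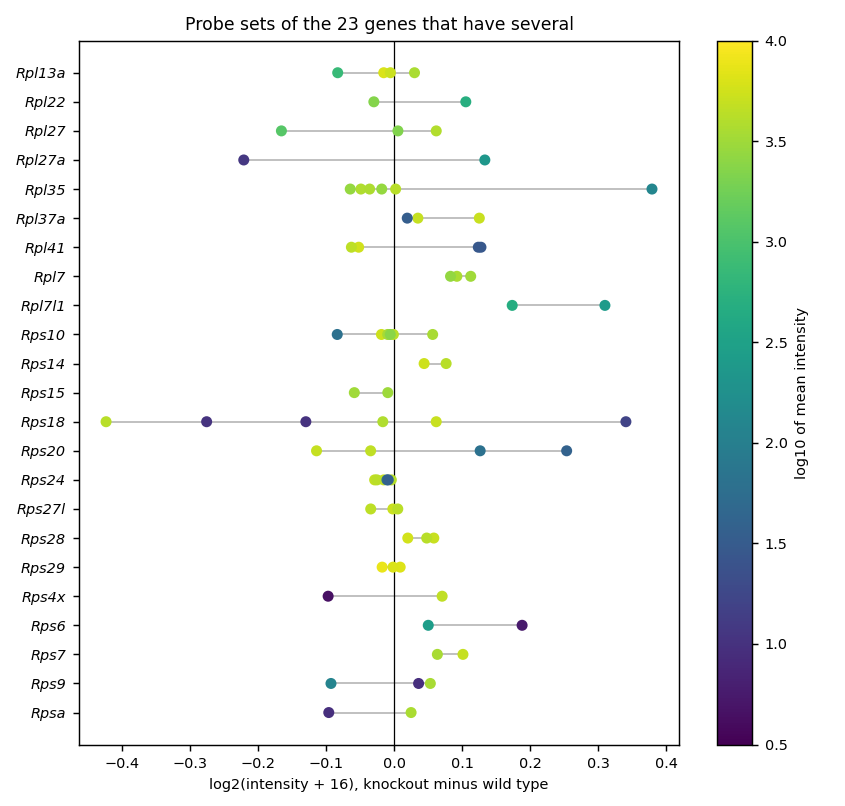
Difference between knockout and wild type on the log2(intensity + 16) scale for each probe set of the 23 genes with several, coloured by log10 of the mean intensity. The widest spreads, in Rps18, Rpl35 and Rps20, join dim and bright sets, while sets of Rps28, Rps29 and Rps24 lie close together.

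Rps18, a protein of the small subunit's head on chromosome 17 (33951998 to 33955665), held the most deviant single value. One of its 6 probe sets read 18278.7 on wild-type replicate 6, while the other 11 arrays lay between 2677 and 3165. That value is the highest in the whole table. The next highest on the same array was 12381, and no other array exceeded 12971. The other 2 bright sets of Rps18 lay on that array at most 1.02 times the median of the other arrays. With all arrays the set had a difference of -0.42 (SE 0.398, adjusted p = 0.555), and without wild-type replicate 6 it was at 0.0236 (adjusted p = 0.840). The brightest set of Rps18 was at 0.0620 (95% interval -0.0435 to 0.17).

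Between animals of one genotype the members varied little. The median SD within groups was 0.0421 on the log2 scale for the 67 member probe sets with a mean intensity of at least 1000, and 0.0755 for 2110 other probe sets past the same limit, whose median intensity was lower (1909 against 4261). Above 3000 the values were 0.0416 for 58 member sets and 0.0526 for 582 others, with nearly the same median intensity (4515 and 4471). Of these, 3 member sets (5.17%) and 47 others (8.08%) passed the test. The mean log2 value of the 36 bright member genes ran from 12.14 to 12.19 over the knockout arrays and from 12.11 to 12.15 over the wild-type arrays, ranges that overlapped, with a difference of 0.0336. Member probe sets made up 3.25% ± 0.0689 of the summed intensity on knockout arrays and 3.26% ± 0.0788 on wild-type arrays (SD over 6 arrays). Wild-type replicate 6, which holds the Rps18 value of 18278.7, had 3.41%. Without it, an alternative chosen after seeing the data, the wild-type mean was 3.23% ± 0.0396 (SD over 5 arrays), below the knockout mean and within its SD.

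**Figure D4:**
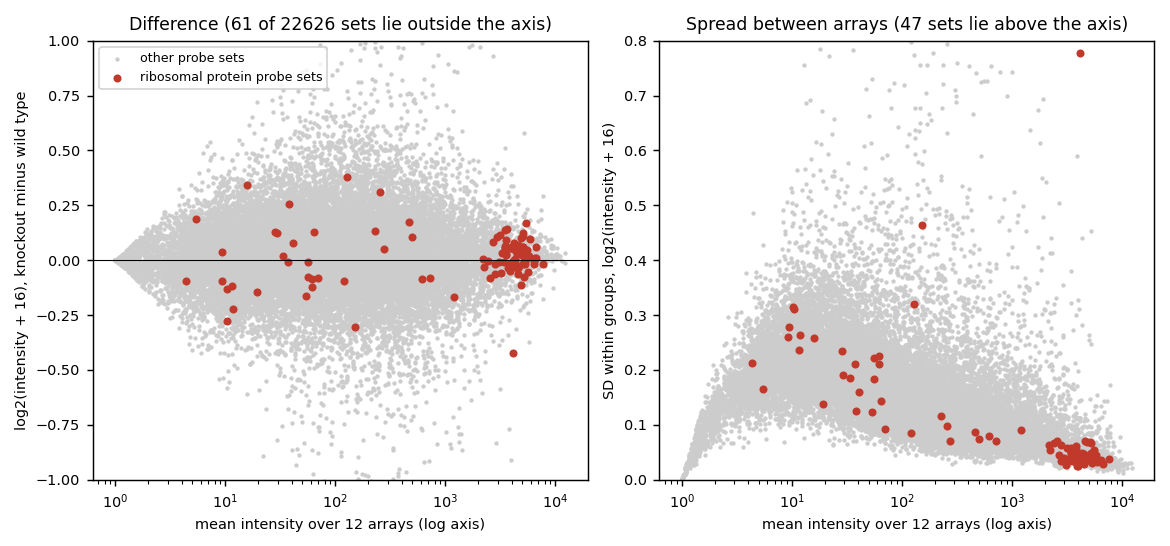
Each point is a probe set, with ribosomal protein sets in red. The left panel shows the difference between knockout and wild type and the right panel the SD within groups, both on the log2(intensity + 16) scale, against mean intensity on a log axis. Bright ribosomal protein sets lie close to 0 and at a low SD, except the Rps18 set with the value of 18278.7.

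Other genes of ribosome production were read from lists chosen with results known. Of 26 measured genes of ribosome assembly and RNA polymerase I, 12 rose and none fell, with a median difference of 0.24, against 6.46% higher and 5.24% lower over all genes. The beta-actin, Gapdh and pyruvate carboxylase control ratios above separate the same arrays, and their part in this count was not tested. Ltv1, an assembly factor of the small subunit, had 507 ± 19.0 in knockout and 332 ± 38.1 in the wild-type livers (SD over 6 arrays), a 1.51-fold rise with an adjusted p of 0.000504 by limma, and Rrn3, which brings RNA polymerase I to the ribosomal RNA genes, 1.42-fold (adjusted p = 0.000807). Nop58 and Nop56, the core of the box C/D particles that modify ribosomal RNA, rose 1.45-fold and 1.32-fold. Fibrillarin (Fbl) of the same particle was at -0.000758 and Ncl (nucleolin) at 0.0314. The difference between this list and the ribosomal proteins was not tested.

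Of 16 other genes whose messengers are known to carry a TOP tract, the initiation factor Eif4b rose 1.13-fold (adjusted p = 0.0295), and Hnrnpa1 and Nap1l1 fell by 0.25 and 0.19 on the log2 scale. The elongation factors Eef1a1 (0.0942) and Eef2 (0.0369) did not pass, and neither did Fau, whose product yields a small-subunit protein (-0.0100). The median of the 16 was 0.0372, and 18.75% were called in either direction, against 11.7% of all genes. Of 74 genes of mitochondrial ribosomal proteins 2 rose and 4 fell (8.11% called), with a median of -0.0285.

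In the mTORC1 and MYC list of 16 genes, 2 rose and 4 fell (37.5% called, against 11.7% of all genes). Eif4ebp2, a translation repressor that mTORC1 inactivates, rose 1.22-fold (adjusted p = 0.00202), while Eif4ebp1 fell by 0.30 (adjusted p = 0.0319) and Tsc1, an inhibitor of mTORC1, by 0.45 (adjusted p = 0.00659). The MYC relative Mycl fell by 1.91 (adjusted p = 0.000507, limma), and Myc was at 0.0958 (adjusted p = 0.654). Mxd4, the remaining gene that fell, was at -0.43 (adjusted p = 0.000564). The S6 kinase relative Rps6ka3 rose 1.17-fold. Larp1 was at 0.15 (adjusted p = 0.160).

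**Figure D5:**
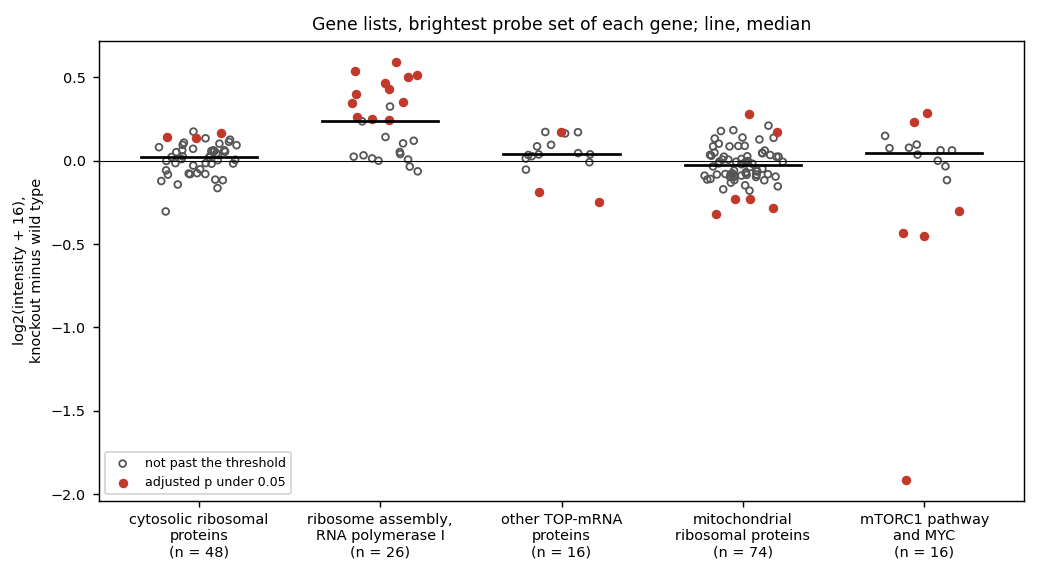
Difference between knockout and wild type on the log2(intensity + 16) scale for the genes of 5 lists, each by its brightest probe set, with a line at the median and filled points past the threshold. Ribosomal protein genes lie in a narrow band around 0, and 12 of 26 ribosome assembly genes stand past the threshold above it.

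Of the 102 probe sets with several symbols, 2 were higher and 2 lower (6.82% and 5.15% over all probe sets), with a median difference of 0.0201, and the 95% interval of 82 lay within 1.2-fold. The higher ones were sets of Rpl12 (0.17, adjusted p = 0.0290) and Rpl14 (0.13, adjusted p = 0.0415, while 4 other sets of Rpl14 lay between -0.0476 and -0.0175), each shared with 1 other symbol, in genes whose own dim sets were at 0.0802 and -0.16. The lower ones were a set of Rpl34 with pseudogenes (-0.13, adjusted p = 0.0351) and a dim set of Rps13 (-0.36, adjusted p = 0.0292). Other shared sets of these genes did not pass: a brighter one of Rpl12 was at 0.00548, one of Rpl34 at 0.0469, and 3 brighter ones of Rps13 lay between -0.0440 and 0.11. The authors' deposited table of 727 selected probe sets held none of the 100 members and none of these 102, and the smallest fold in it was 1.28.

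Hepatocyte markers were high in every array, with a summed intensity of 8 genes from 55534 to 59926 over the wild-type arrays and from 55605 to 57092 over the knockout arrays. Of the 8, Hnf4a rose (0.32, adjusted p = 0.0192), and Pck1 (-0.91, adjusted p = 2.46e-05) and Cps1 (-0.20, adjusted p = 0.0294) fell. Ribosomal protein messengers are also plentiful in leukocytes. Of 9 T and B lymphocyte markers none passed, and their sum ran from 443.2 to 556.1 in knockout and from 350.1 to 602.1 in wild type. None of 9 Kupffer cell, 6 neutrophil, 9 endothelial or 5 cholangiocyte markers passed either. Their median differences were 0.25, 0.00367, 0.0893 and 0.15, in that order. The Kupffer cell sum ran from 3885 to 5238 in knockout and from 2984 to 6985 in wild type. Lack of a call among such variable or dim markers does not exclude a change in these cells. Of 9 stellate cell markers 4 rose, with sums from 3337 to 3952 in knockout and from 2810 to 3429 in wild type. Of 4 erythroid markers 1 fell (Alas2). For comparison, 6.46% of all genes rose and 5.24% fell. In whole liver, a change in the number of cells of a type and a change in RNA per cell cannot be told apart, and the part of the stellate markers in the rises above was not tested.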

How the data were processed

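Total RNA of 12 livers was labelled as biotinylated cRNA and hybridised to Affymetrix mouse arrays, per the labels' protocols. The authors deposited 1 intensity per probe set and array, linear and already scaled; no source used here names the summarising program. Another deposited table, of the authors' own selection, gives a signed fold (a score), used only to state its range.

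Without 64 control sets, 22626 remained for testing; 20380 had 1 gene symbol, 691 several and 1555 none. Values were analysed as log2(intensity + 16) with limma 3.58.1 in R 4.3.3 (lmFit, eBayes), 6 knockout against 6 wild-type arrays, with two-sided p-values adjusted by Benjamini-Hochberg across the 22626 and called under 0.05. Folds, apart from the authors' own, were taken from differences on this scale and are ratios of intensity plus 16. The constant understates changes of dim sets. For a gene with several sets, the one of highest mean intensity stood for it. Levels of different probe sets are not compared as amounts of RNA. Gene positions and promoters came from RefSeq (GRCm38.p6). The members, the gene lists and the tests were chosen with earlier results of these data known.

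Named genes were those with a called set, the 3 highest and 3 lowest differences and mean intensities, the stalk proteins, Rpsa, Rpl5, Rpl11, Rps6, Rps27a and the paralogs; Rpl4, Rpl7, Rpl8, Rpl27, Rpl35, Rpl37a, Rps3a1, Rps7 and Rps18 were added after their values were seen, as were the genes named from the other lists. Rps27a was not among the 100 sets. The method was checked on simulated arrays with known changes, all larger than those of the called members. That check does not show how often changes as small as theirs are found. Alternatives were other constants (1 and 64), a filter on dim sets, other scalings and variance models, array weights, the replicate number as a block, a stricter threshold, plain-suffix sets, the mean over a gene's sets, and leaving out each array. Figures were drawn with matplotlib 3.10.9.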

Additional observations from a re-analysis of the deposited data

Results flagged for a closer look

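One value stood far from the rest of its group among 68 groups of 6 arrays that were examined, where chance alone marks about 1 group in 20. Its probe set was among those added after their values were seen, so that rate does not apply to it. In 1 of the 6 probe sets of Rps18, wild-type replicate 6 read 18278.7, against 2729.8 to 2987.67 on the remaining 5 of its group, so that the gap took up 0.983 of the range of the group. The remaining bright sets of Rps18 showed nothing of the kind on that array.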

How the results depend on the processing

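Counts of called members depended on the settings. With the deposited scaling 5 member probe sets and 3 genes were higher and 0 lower. The constant 64 gave 11 sets and 9 genes higher and 1 set lower. Leaving out dim sets gave 10 sets and 9 genes higher and 1 set lower. The trended and robust variance gave 11 sets and 9 genes higher, and 2 sets and 1 gene lower. Array weights gave 5 genes higher, median centring 2 sets and 1 gene higher and 1 set lower, and the threshold of 0.01 gave 1 set and 0 genes. Plain-suffix sets alone gave 2. Over all probe sets tested, the share called higher was 6.82% as deposited, 8.19% with the constant 64 and 15.7% without dim sets. It was 7.98% with the trended and robust variance, 7.12% with array weights and 5.42% after median centring. The share called lower was, in the same order, 5.15%, 6.10%, 12.3%, 5.85%, 5.13% and 6.89%. Shares over all genes were not computed for the alternatives, so their gene counts lack such a comparison. The filter tests fewer sets, and for the other settings the cause was not tested. Median centring moved the median difference to -0.0277 over probe sets and -0.00943 over genes; the share of higher calls over all probe sets was 57.0% as deposited, 49.2% after quantile normalization and 44.0% after median centring. Leaving out each array in turn gave 2 to 8 sets and 1 to 5 genes higher, 0 to 1 sets and 0 genes lower, and medians from -0.00112 to 0.0166 over sets and from 0.0130 to 0.0304 over genes. The count was 8 when wild-type replicate 1 was dropped, 2 when knockout replicate 1 or any of wild-type replicates 3, 5 and 6 was, and 3 when knockout replicate 2, 3 or 4 was; the 1 lower set appeared when knockout replicate 6 was dropped. With the replicate number as a block 1 set and 0 genes were higher; same-numbered arrays did not deviate together (correlations from -0.0780 to 0.0780 over the 6 numbers), so the numbers were not taken as pairs. Of 667 recomputed values of the 32 named probe sets, 590 kept their direction and side of the threshold, 35 lost a call and 31 gained one, and 11, none of them called, changed sign. The number of arrays and the low signal of dim sets limit the precision.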

Other observations

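The arrays also carry control probe sets for 18S ribosomal RNA, the RNA of the small subunit, which lacks a poly(A) tail. For the 3′ set the knockout arrays had 538 ± 88.0 and the wild-type arrays 431 ± 83.7 (SD over 6 arrays), with a two-sided exact permutation p of 0.0584 (0.175 adjusted over 3 sets), and the groups overlapped. The middle set was at 194.2 ± 45.9 and 224.4 ± 77.2 (exact permutation p = 0.448), and the 5′ set at 359.3 ± 176 and 235.9 ± 67.9 (exact permutation p = 0.149). None passed, and the 3 sets did not point one way.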
